A study of Mus musculus with 4 samples.

Results

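The genes described here are the Fragile X messenger ribonucleoprotein gene Fmr1, its autosomal paralogues Fxr1 and Fxr2, and 3 genes named for proteins that bind the Fmr1 product, Cyfip1, Nufip1 and Nufip2. They were found by symbol in the mutant gene table and matched in the other table by gene identifier, and all 6 were measured in both, among 13478 genes that the tables share. They were chosen by role, with the levels, IP-over-input ratios and peaks of these libraries known, so every value below is a description and none is tested.

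FMRP, the product of Fmr1, is an RNA-binding protein of cytoplasmic messenger ribonucleoproteins that is best known in neurons for repressing translation, and its loss causes Fragile X syndrome in humans. FXR1 and FXR2 share its KH and Agenet domains and can associate with it. CYFIP1 links FMRP to the cap-binding protein eIF4E and is also a subunit of the WAVE complex that drives branched actin assembly. NUFIP1 is a nuclear protein that assists assembly of box C/D small nucleolar ribonucleoproteins, and NUFIP2 is a cytoplasmic partner of FMRP and of the mRNA-decay factor Roquin.

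The samples were mouse pancreatic cancer-associated fibroblasts (CAFs), named 15376CAFs in the series, made to overexpress Lin28b with a Flag tag. Lin28b binds RNA and is best known as an inhibitor of let-7 microRNA processing. The 4 libraries were 1 anti-Flag immunoprecipitate (IP) and 1 input from cells with Lin28b-MU, a mutant deficient in RNA binding, and 1 IP and 1 input from cells with Lin28b-WT, the wild-type protein. All libraries thus come from cells made to overexpress a Flag-tagged Lin28b, and both IPs share the antibody. No IP from cells without a tagged protein was analysed here. The promoter that drives Lin28b and whether either line is clonal are not given in the sources used here. With 1 library a group no difference has a replicate check.

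Levels are in FPKM (fragments per kilobase of transcript per 1e6 mapped), a unit read from the values, and the read depth behind them is unknown. Lin28b itself stood at 36.7 FPKM in the mutant IP and 30.01 in its input, and at 8.99 in the wild-type IP against 13.8 in its input. Of 13 fibroblast markers 6 were listed in both tables, with summed input levels of 708 FPKM in the mutant and 820 in the wild type. Vim alone stood at 547 FPKM in the mutant input and 607 in the wild-type input. Col1a2, Col3a1, Pdgfrb, Fap, Dcn, Lum and Thy1 were not listed in both, and Col1a1 stood at 0.404 FPKM in the mutant input and 0.722 in the wild-type input. Acta2 and Pdgfra were also low, at 0.524 and 0.860 FPKM in the mutant input and 0.227 and 1.33 in the wild-type input. Of 7 epithelial markers 5 were listed in both, with summed input levels of 1374 FPKM in the mutant and 1912 in the wild type. Among them Krt7 differed most, at 3.32 FPKM in the mutant input and 31.7 in the wild-type input. Krt18 alone was higher in the mutant input, at 441 FPKM against 395. For endothelial and leukocyte markers the counts were 0 of 3 and 1 of 4. The part of this cell makeup in the results below was not tested.

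A strong peak lay at the start of Fmr1 in the wild-type IP, and another peak lay at the start of Fxr2 in the mutant IP. The sequences at the upstream edge of both are shown because RefSeq's promoter windows (GRCm38.p6) reach these ends of the peaks. They run 5′ to 3′ on the gene strand, with each GGAG in capitals, a motif known from work on LIN28 RNA binding. The Fmr1 stretch is chrX:68678564-68678593 on the plus strand, the first 30 bases of its peak. The Fxr2 stretch is chr11:69632924-69633000 on the plus strand, the first 77 bases of its peak.
Fmr1: agcGGAGcccttggcctcagtcagtcaggc
Fxr2: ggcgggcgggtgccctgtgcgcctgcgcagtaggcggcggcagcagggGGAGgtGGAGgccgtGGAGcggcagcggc

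The Fmr1 stretch printed holds 1 GGAG and the Fxr2 stretch printed holds 3. GGAG was the only motif searched, on both strands. Over all 32851 promoter windows, each 250 bases before to 50 bases after a start, 83.7% hold GGAG on the gene strand and 82.1% hold it on the opposite strand. For the 50 transcribed bases alone the shares are 34.5% and 27.4%. RefSeq gives a pair of starts, and so of windows, for Fmr1. The later of them reaches 68 bases of the Fmr1 peak, more than are printed, and these hold 2 GGAG, with 66.2% of them G or C. The Fxr2 window reaches 97 bases of its peak, which hold 3 GGAG, with 80.4% of them G or C. Over all windows at full length, the median share of G or C was 52.7%. At that length the share was 65.7% and 67.0% in the windows of Fmr1 and 71.3% in that of Fxr2. The GGAG shares above are for at least 1 GGAG in stretches of other length, so the counts of 2 and 3 have no like share. Windows were found for 5 of the 6 genes. Among those without a peak at the start, the window held 4 GGAG on the gene strand for Fxr1, 3 for Nufip2 and 0 for Nufip1. In the 50 transcribed bases alone Fxr1 and Nufip2 each held 1.

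Fmr1 RNA was recovered above input with the wild-type protein and, on the uncentred scale, close to input with the mutant. Fmr1 (chrX:68678541-68717963, GRCm38) stood at 17.9 FPKM in the mutant IP and 17.3 in the mutant input. It stood at 49.2 FPKM in the wild-type IP against 21.5 in its input. The wild-type IP was the highest of the 4 libraries, and the other 3 lay between 17.3 and 21.5. On the scale of log2 of (IP + 0.01) over (input + 0.01), the ratio was 0.049 in the mutant and 1.20 in the wild type, which is 1.03-fold and 2.29-fold. The mutant ratio minus the wild-type ratio was −1.15. With each table centred on its median the ratio was 0.65 in the mutant and 1.49 in the wild type.

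Fxr1, the most abundant of the 6 RNAs in every library, had the same pattern. Fxr1 (chr3:34019943-34070322) stood at 84.2 FPKM in the mutant IP and 77.5 in its input, and at 188 in the wild-type IP against 73.9 in its input. The inputs were thus close to each other, and the wild-type IP stood apart from the rest. The log2 ratio was 0.12 in the mutant and 1.34 in the wild type, or 1.09-fold and 2.54-fold, and the difference was −1.22. After centring the ratio was 0.73 in the mutant and 1.64 in the wild type.

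Fxr2, the third paralogue, did not follow. Fxr2 (chr11:69632990-69653297) stood at 32.7 FPKM in the mutant IP and 30.6 in its input, and at 23.8 in the wild-type IP against 28.0 in its input. The wild-type IP was the lowest of its 4 values. The log2 ratio was 0.094 in the mutant and −0.24 in the wild type, and the wild-type value became 0.059 when each table was centred on its median. The difference was 0.33.

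**Figure D1:**
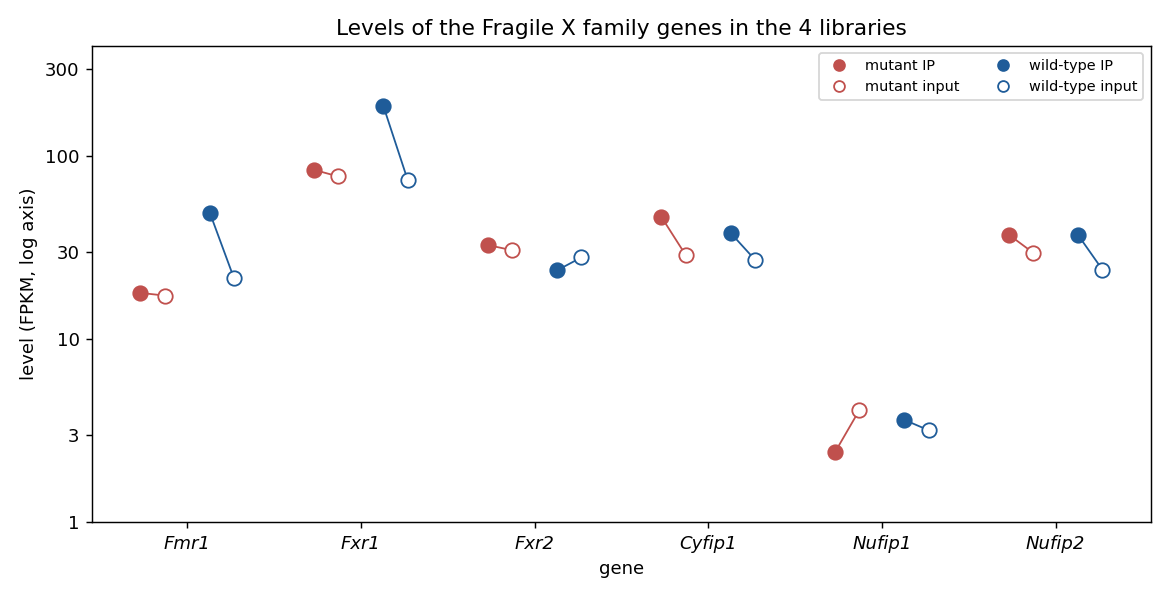
Level in FPKM on a log axis for each gene, with filled points for IPs and open points for inputs, mutant left of wild type and each IP joined to its own input. Fmr1 and Fxr1 stand well above input in the wild-type IP alone (49.2 and 188 FPKM), and Nufip1 lies lowest throughout.

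Of the genes named for FMRP partners, Cyfip1 and Nufip2 were somewhat above input with both proteins. Cyfip1 (chr7:55841745-55932602) stood at 46.6 FPKM in the mutant IP and 28.9 in its input, and at 38.0 in the wild-type IP against 27.1 in its input. Its log2 ratio was 0.69 in the mutant, the highest of the 6 genes there, and 0.48 in the wild type. With each table centred on its median the mutant value of Cyfip1 was 1.30, past the 2-fold mark. After the same centring 15.9% of all genes in the mutant table passed that mark with an authors' q-value under 0.05.

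Nufip2 (chr11:77686155-77741921) stood at 37.3 FPKM in the mutant IP and 29.7 in its input, and at 37.1 in the wild-type IP against 24.0 in its input. The IP levels were nearly equal and the inputs were not. Its log2 ratio was 0.33 in the mutant and 0.63 in the wild type, a difference of −0.30 that became 0.012 after centring.

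Nufip1 was the least abundant and the lone gene below input with the mutant. Nufip1 (chr14:76110891-76137379) stood at 2.41 FPKM in the mutant IP and 4.09 in its input, and at 3.62 in the wild-type IP against 3.18 in its input. The log2 ratio was −0.76 in the mutant and 0.19 in the wild type, with a difference of −0.95 that became −0.64 after centring. Its counting error is unknown.

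**Figure D2:**
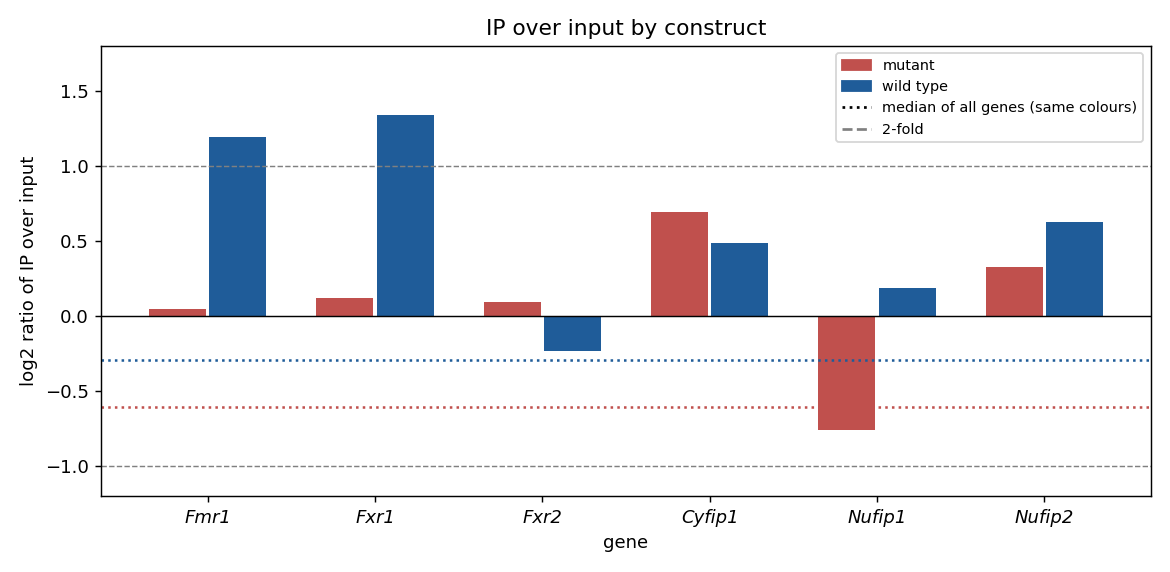
Log2 ratio of IP over input for each gene, mutant bar left of wild-type bar, with dashed lines at 2-fold and dotted lines at the median of all genes in each table (−0.61 in the mutant, −0.29 in the wild type). The wild-type bars of Fmr1 and Fxr1 alone pass the upper dashed line.

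A gene was called enriched at 2-fold or more above input with an authors' q-value under 0.05, and lower at 2-fold or more below input with the same q-value. In the mutant 0 of the 6 genes were enriched and 0 were lower, where 5.98% and 36.0% of all 14427 genes were. In the wild type 2 were enriched, Fmr1 and Fxr1, and 0 were lower, where 7.40% and 21.5% of all 14755 genes were. Both also had a wild-type ratio at least 2-fold above the mutant ratio. Together with wild-type enrichment this held for 3.92% of genes in both tables. The gap alone was common. Of genes in both tables, 22.3% had a difference at or below that of Fmr1, and 20.6% at or below that of Fxr1. After centring the differences were −0.84 for Fmr1 and −0.91 for Fxr1, short of 2-fold. The converse, mutant enrichment with a mutant ratio at least 2-fold above the wild-type ratio, held for 0 of the 6 and for 2.02% of genes in both tables. The q-value in the authors' deposited table was at or above 0.05 for 3 of the 12 ratios, those of Fmr1 and Fxr2 in the mutant and of Nufip1 in the wild type. That q-value compares 2 libraries, not 2 conditions.

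Read against all genes, the 6 lay mostly above the centre of both tables. Their median log2 ratio was 0.11 in the mutant, against −0.61 over all genes, and 0.56 in the wild type, against −0.29 over all genes. All genes here include pseudogenes and genes of low level, while the 6 are protein-coding. No median was taken over coding genes of like level. The ratio was higher with the wild-type protein in 4 of the 6, as it was in 63.2% of all genes in both tables. The median difference was −0.62 for the 6 genes and −0.32 for all genes. In the wild type, 95.1% of genes had a ratio at or below that of Fxr1 and 93.9% at or below that of Fmr1. In the mutant, 88.7% were at or below Cyfip1 and 72.3% at or below Fmr1.

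The input levels of the constructs lay within 1.29-fold of each other for all 6 genes. The mutant input over the wild-type input lay between 0.806 for Fmr1 and 1.29 for Nufip1. The order from high to low in the mutant input was Fxr1, Fxr2, Nufip2, Cyfip1, Fmr1 and Nufip1, and in the wild-type input it was Fxr1, Fxr2, Cyfip1, Nufip2, Fmr1 and Nufip1. Neighbours in the middle of that order, from Fxr2 to Cyfip1 or Nufip2, lay between 24.0 and 30.6 FPKM and cannot be ranked without replicates. Fewer cells with a transcript and less transcript per cell cannot be told apart in such bulk libraries, and the tables were normalised separately.

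**Figure D3:**
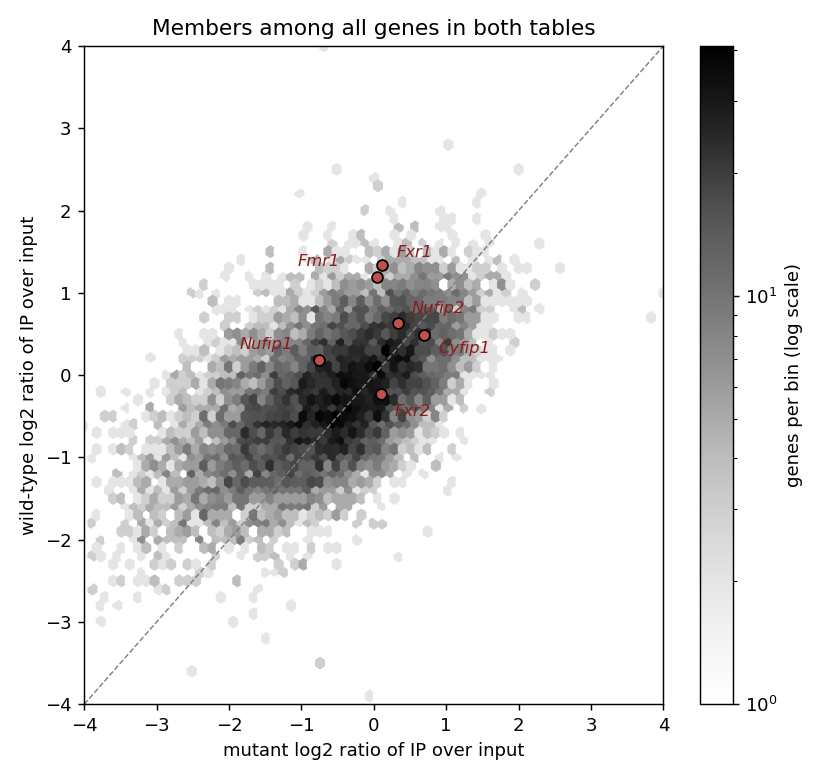
Mutant log2 ratio on the horizontal axis against wild-type log2 ratio on the vertical axis, with all genes in both tables as shaded bins and the 6 genes as points; 704 genes lie outside the plotted range of 4 in either direction. Fmr1 and Fxr1 lie side by side above the dashed line of equal ratios, and Fxr2 and Cyfip1 lie below it.

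The genes with the pair of ratios nearest to Fmr1, by distance in the plane of the mutant and wild-type log2 ratios over 9690 protein-coding genes with at least 1 FPKM in both inputs, were Nfyb, Tfam and Odr4. Nfyb, a subunit of the NF-Y transcription factor, had 0.063 in the mutant and 1.22 in the wild type. Tfam, which packages mitochondrial DNA, had 0.074 in the mutant and 1.26 in the wild type. Odr4 had 0.044 in the mutant and 1.12 in the wild type. The nearest to Fxr1 were Retreg1 and Zfp984, to Fxr2 Tubgcp3 and Bloc1s4, to Cyfip1 Chd1 and Six4, to Nufip1 Slc18b1 and Pak1, and to Nufip2 Manea and Mccc1. The measure covers 2 constructs with 1 pair of libraries each.

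The peak lists give the stretches of each gene where the authors' caller placed a peak in the IP. A peak was given to a gene where its summit lay inside the gene span on the gene strand. The 6 genes held 18 of the 15931 mutant peaks and 28 of the 11912 wild-type peaks. At least 1 peak was present in 5 of the 6 genes in the mutant, against 17.5% of all genes, and in 4 of the 6 in the wild type, against 23.1%. Beside this stands their input level, which for every gene except Nufip1 was at or above that of 70.6% to 95.2% of genes in the mutant table and 76.6% to 94.9% in the wild-type table. For Nufip1, which held 0 peaks in either IP, these shares were 38.2% and 36.3%. The part of level in peak detection was not tested. The folds below are the authors' own for the peak summit.

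Fmr1 held 2 peaks in the mutant IP and 6 in the wild-type IP. Both mutant peaks lay near the end of the gene, at chrX:68716332-68717026 (fold 5.36) and chrX:68717250-68717717 (fold 4.30). In the wild type a single broad peak at chrX:68715445-68717834 (fold 1.57) covered both. The strongest wild-type peak was the one at the start of the gene, chrX:68678564-68678843, with a fold of 29.2, and it overlapped no mutant peak. Its summit lay 115 bases past the gene start and its fold ranked 35 in the whole wild-type list. The other 4 wild-type peaks lay between 48.8% and 85.4% of the way along the gene, with folds from 2.96 to 7.32, and also overlapped no mutant peak.

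Peaks at gene starts were rare in these lists. A summit within 250 bases past a gene start on the gene strand was found for 147 mutant peaks (0.923%) and 74 wild-type peaks (0.621%). By fold, the Fmr1 peak ranked 3 among the 74 in the wild type. The Fxr2 peak, chr11:69632924-69633288 with a fold of 3.97 and its summit 200 bases past the gene start, ranked 102 among the 147 in the mutant. It began 47 bases before the RefSeq start of Fxr2, and it was absent when the mutant list was cut by q-value to as many peaks as the wild-type list. It was the single peak of Fxr2, which held 0 peaks in the wild type.

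Fxr1 held 1 peak in the mutant IP and 13 in the wild-type IP, a number that 0.739% of genes in the wild-type table reached. All 13 lay in the distal part of the gene, from 51.7% to 98.4% of the way along it, and together covered 3745 bases. Their lengths ran from 202 to 545 bases and their folds from 2.65 to 14.1. The strongest lay at chr3:34054045-34054304 and the next strongest at chr3:34047461-34047700 (fold 9.60). The mutant peak, chr3:34056133-34056333 (fold 4.16), lay within the wild-type peak at chr3:34056132-34056372 (fold 8.95), and the other 12 wild-type peaks overlapped no mutant peak. The last wild-type peak ended 29 bases before the RefSeq end of the gene.

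Cyfip1 held 7 peaks in the mutant IP and 4 in the wild-type IP, the reverse of the order in Fmr1 and Fxr1. Its mutant peaks ran from 49.5% to 97.5% of the way along the gene with folds from 1.63 to 4.28, and its wild-type peaks from 68.9% to 97.4% with folds from 1.44 to 4.91. In each list 3 of them overlapped a peak of the other. The strongest wild-type peak, chr7:55904052-55904420, was contained in the mutant peak at chr7:55904033-55904421 (fold 4.12).

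Nufip2 held 7 peaks in the mutant IP and 5 in the wild-type IP. The mutant peaks together covered 4822 bases and the wild-type peaks 7419. With the mutant list cut by q-value to as many peaks as the wild-type list, Nufip2 held 4 mutant peaks, fewer than in the wild type. All 7 mutant peaks overlapped a wild-type peak, and 3 of the 5 wild-type peaks overlapped a mutant peak. The other 2 wild-type peaks lay before the first mutant peak, at chr11:77691372-77691607 (fold 2.40), 9.70% of the way along the gene, and at chr11:77709603-77709832 (fold 4.56). A wild-type peak of 4313 bases, chr11:77710001-77714313 (fold 2.21), spanned 4 mutant peaks. The strongest peaks of both IPs overlapped, chr11:77715448-77716727 in the mutant (fold 7.08) and chr11:77715092-77716727 in the wild type (fold 9.25). The gene span in the tables runs 23955 bases past the RefSeq end of Nufip2, and every peak lay within the RefSeq span, the last wild-type peak ending 94 bases before that end.

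**Figure D4:**
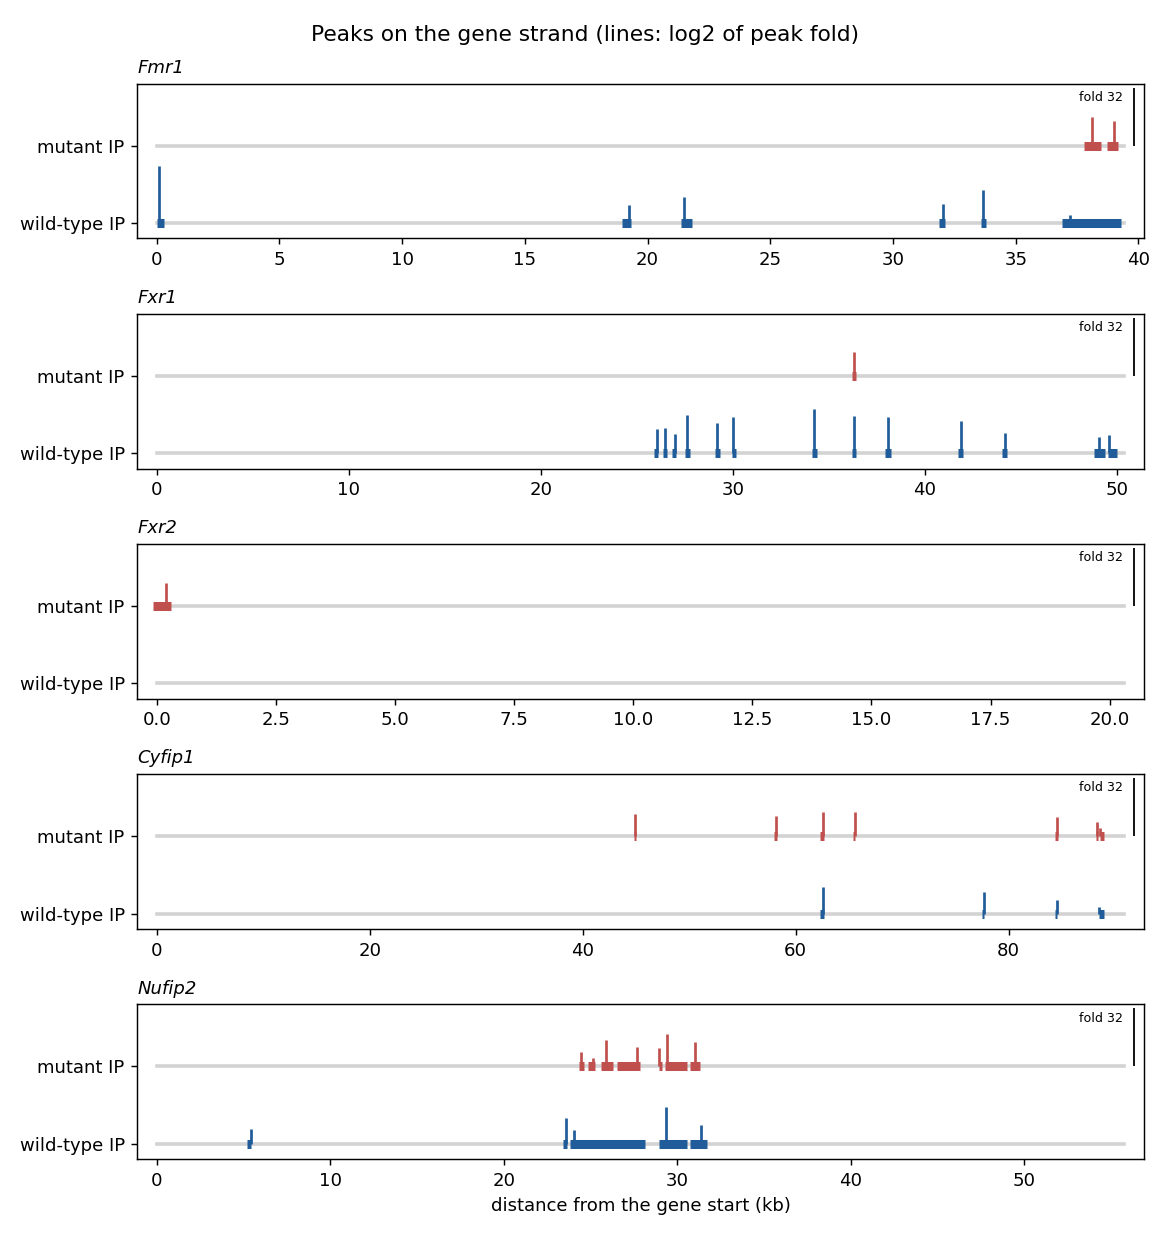
Peaks on the gene strand along each gene that held any, mutant above wild type, with position in kb from the gene start; thick bars mark peak extents and the vertical line at each summit has a length proportional to log2 of the authors' fold, with a black scale bar for a fold of 32 at the right. Fxr1 shows 13 wild-type peaks and 1 mutant peak, and Fmr1 shows a wild-type peak at its start.

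Over the 6 genes, 13 of 18 mutant peaks and 8 of 28 wild-type peaks overlapped a peak of the other list by at least 1 base. Over the whole lists 36.2% of mutant peaks and 49.6% of wild-type peaks did. The mutant peaks counted include 7 in Nufip2, which overlapped 3 wild-type peaks, and 2 in Fmr1, which overlapped 1. Several mutant peaks were thus counted against the same broad wild-type peak. With a reciprocal overlap of 50% the counts were 6 of the mutant peaks and 6 of the wild-type peaks, where 27.7% and 37.1% of the whole lists passed. Of the 20 wild-type peaks without a mutant counterpart, 5 lay in Fmr1 and 12 in Fxr1. Exons were not assigned, since no exon models were used. On the opposite strand, Dnajc19 overlaps Fxr1 by 14303 bases and Nipa2 overlaps Cyfip1 by 1316 bases. The library kit keeps strand, per the labels, but no source used here says whether the gene levels were counted by strand, so the levels of Fxr1 and Cyfip1 may hold reads of these neighbours. In each IP 2 peaks on the Nipa2 strand touched the end of Cyfip1, all inside Nipa2.

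The lists of genes that work with these proteins varied from each other, and their counts stand beside the shares of all genes. Those shares were 5.98% enriched and 36.0% lower in the mutant, and 7.40% enriched and 21.5% lower in the wild type. After centring they were 15.9% enriched and 22.8% lower in the mutant, and 12.2% enriched and 14.7% lower in the wild type. Of 17 partners of FMRP in messenger ribonucleoproteins, 5 were enriched and 3 lower in the mutant, while the wild type had 2 enriched and 1 lower. After centring 5 were enriched and 1 lower in the mutant, and the wild type had 5 enriched and 0 lower. Their median log2 ratio was 0.018 in the mutant, 0.62 after centring, and 0.33 in the wild type, 0.63 after centring. Purb, which encodes a nucleic acid-binding protein, stood at 96.3 FPKM in the mutant IP and 26.9 in its input, a 3.58-fold enrichment, and at 37.0 in the wild-type IP against 18.9 in its input, or 1.96-fold. Ago2, the microRNA effector gene, was enriched 2.88-fold in the mutant and 2.04-fold in the wild type. Eif4e, which encodes the cap-binding protein that CYFIP1 contacts, had a log2 ratio of −1.35 in the mutant, called lower, and 0.79 in the wild type. Ybx1, a cold-shock domain protein gene, had −2.15 in the mutant, called lower, and −0.59 in the wild type.

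Of 9 genes of the WAVE complex and its activator, in which CYFIP1 works, 7 were measured. In the mutant 2 were enriched and 2 lower, where 5.98% and 36.0% of all genes were, and in the wild type 0 were enriched and 1 lower, where 7.40% and 21.5% were. After centring 2 were enriched and 1 lower in the mutant, where 15.9% and 22.8% of all genes were. The wild type then had 2 enriched and 0 lower, where 12.2% and 14.7% were. The scaffold subunit gene Nckap1 had log2 ratios of 1.18 in the mutant and 0.89 in the wild type, and Abi2 had 1.02 in the mutant and 0.99 in the wild type. The small subunit gene Brk1 had −1.76 in the mutant and −1.01 in the wild type, and the GTPase gene Rac1 had −1.32 in the mutant and −0.48 in the wild type. The medians were −0.49 in the mutant and −0.22 in the wild type, and both turned positive after centring, to 0.12 and 0.071.

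All 10 genes of box C/D ribonucleoproteins and their assembly, the setting of NUFIP1, were measured. In the mutant 0 were enriched and 7 lower, where 5.98% and 36.0% of all genes were. In the wild type 0 were enriched and 1 lower, Pih1d1, where 7.40% and 21.5% were. After centring the mutant count of lower genes was 2, where 22.8% of all genes were lower. The medians were −1.22 in the mutant and −0.63 in the wild type, both below the medians of all genes. Snu13, a core protein gene, had −2.25 in the mutant and −0.63 in the wild type. Pih1d1, an assembly factor gene, had −1.85 in the mutant and −1.89 in the wild type. The core protein genes Nop56 and Nop58 each had −1.38 in the mutant, with −0.73 and −0.64 in the wild type.

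Of 12 mRNAs that textbooks give as FMRP targets, 9 were measured, with Arc, Camk2a and Mmp9 not listed in both tables. In the mutant 0 were enriched and 2 lower, Sod1 and Limk1, where 5.98% and 36.0% of all genes were. In the wild type 0 were enriched and 1 lower, Limk1, where 7.40% and 21.5% were. After centring 3 were enriched and 0 lower in the mutant, where 15.9% and 22.8% of all genes were. In the wild type 0 were then enriched and 0 lower, where 12.2% and 14.7% were. Sod1, the superoxide dismutase gene, had −1.14 in the mutant and −0.90 in the wild type, and the kinase gene Limk1 had −1.04 in both. The medians were −0.066 in the mutant and −0.19 in the wild type, and both turned positive after centring, to 0.54 and 0.10.

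**Figure D5:**
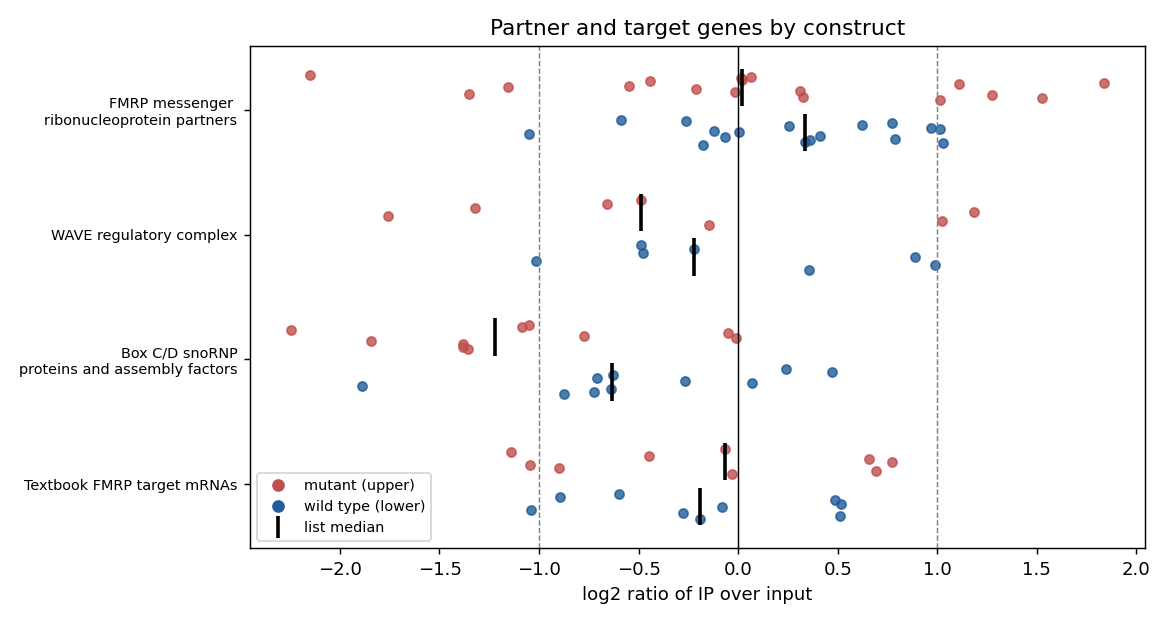
Log2 ratio of IP over input for each measured gene of the 4 lists, mutant above wild type within each list, with black bars at list medians and dashed lines at 2-fold. The box C/D genes lie furthest left, with medians of −1.22 in the mutant and −0.63 in the wild type.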

How the data were processed

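RNA immunoprecipitation with an anti-Flag antibody was measured in 4 libraries. The submitters' processing notes name HISAT2 (2.1.0), bedtools, HOMER (4.11.1) and MACS2 (2.2.7.1), and the builds GRCm38 and mm10, without roles. The authors' deposited gene tables give levels, read here as FPKM, with a log2 ratio, a p-value and a q-value. Headers name no unit for the levels: column sums of 207301 to 321238 differ from those of TPM, and the evidence behind the authors' p-value per unit of level scaled with length (Spearman rho across 202 mutant and 143 wild-type processed pseudogenes 0.951 and 0.929; genes are not independent). The authors' deposited log2 ratio equals log2 of (IP + 0.01) over (input + 0.01) to within 1.57e-09. The authors' deposited peak lists hold a score, a fold ratio and −log10 p-value and q-value columns, called per IP and strand. The score was not used. No source used here says whether the input was the peak control.

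Ratios, calls, overlaps and medians were computed with Python 3.11.15 and pandas 2.3.3. The calls and the peak counts per gene were checked on simulated data, and the overlap rule on a small made-up example. No test was run, since each group held 1 library. The members and gene lists were chosen with earlier results of these data known. Genes named were all 6 members, up to 4 called genes per list by largest absolute ratio, and nearest genes by ratio. Alternatives were pseudocounts of 0.1 and 1, centring, a call without q-value, a minimum level of 1, and other peak rules.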

Additional observations from a re-analysis of the deposited data

Results flagged for a closer look

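Fxr2 and Nufip1 had ratios on opposite sides of 0 in the constructs. For Fxr2 the mutant log2 ratio of IP over input lay above 0 and the wild-type ratio below it. The difference, mutant minus wild type, was 0.33, and 76.1% of genes in both tables had a difference at or below that. After centring on the table median the wild-type ratio of Fxr2 also lay above 0. For Nufip1 the mutant ratio lay below 0 and the wild-type ratio above it, with a difference of −0.95, and 27.7% of genes in both tables had a difference at or below that. After centring the Nufip1 ratios were −0.15 in the mutant and 0.48 in the wild type, with a difference of −0.64. The authors' q-value was at or above 0.05 for the mutant ratio of Fxr2 and for the wild-type ratio of Nufip1. The share of all genes with ratios on opposite sides of 0 was not counted. With 1 pair of libraries per construct neither difference was tested.

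A wild-type peak on the strand opposite to Fxr1, at chr3:34054248-34054466 with a fold of 8.98, had no overlapping peak in the mutant list and lies outside the measurement of sense RNA. In position it overlaps the downstream end of the strongest Fxr1 peak, chr3:34054045-34054304. The nearest table gene on that strand, Dnajc19, ends 1554 bases from it.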

How the results depend on the processing

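Centring each table on its median moved the values most. In the mutant the log2 ratios became 0.65 for Fmr1, 0.73 for Fxr1, 0.70 for Fxr2, 1.30 for Cyfip1, −0.15 for Nufip1 and 0.93 for Nufip2. Of the 6 genes 1, Cyfip1, was then enriched in the mutant, where 15.9% of all genes were. In the wild type the ratio of Fxr2 turned to 0.059. The difference, mutant minus wild type, became −0.84 for Fmr1 and −0.91 for Fxr1, short of 2-fold, and turned to 0.012 for Nufip2. The list medians that turned were those of WAVE genes (0.12 in the mutant, 0.071 in the wild type) and of FMRP targets (0.54 in the mutant, 0.10 in the wild type). With a reciprocal overlap of 50%, 6 mutant peaks of the 6 genes were shared. With a pseudocount of 0.1, all 46 values stayed within 1.5-fold, on the same side of 0 and of 2-fold. A pseudocount of 1 changed 7 of 16 counts in the gene lists, 5 of them by over 1.5-fold, and left the members' ratios within 1.5-fold and their counts of calls as they were. Fmr1 and Fxr1 stayed the enriched members in the wild type under each pseudocount, centring and the call without q-value. With the mutant list shortened, mutant peaks numbered 1 for Fmr1, 0 for Fxr2 and 4 for Nufip2. No paired analysis was possible because each group held 1 library. Read depth is unknown, so counting error could not be given for any level.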
